A study of Mus musculus with 6 samples.

Results

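The RNAs described here are the products of 7 genes that RefSeq annotates as long non-coding: Malat1, Neat1, Meg3, Miat, Snhg11, Rian and Mirg. They were chosen by gene symbol from the gene count table, which held a row for 7 of 7 among its 24062 genes. Whole retinas of C57Bl6/J wild-type mice (WT) were compared with retinas of rd10 mice, which carry the rd10 genotype on a strain also labelled C57Bl6/J, at postnatal day 30. Each group had 3 libraries, each from 1 sample of 2 frozen retinas. The rd10 allele is a missense change in Pde6b, a subunit gene of the rod phosphodiesterase, and rods die in these mice after birth. The labels name no treatment for either group. Nothing in them ties the libraries of a genotype to different mice, and the spread behind each p-value may therefore be technical.

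Long non-coding RNAs act as RNA rather than as templates for protein. Malat1 stays in the nucleus at speckles, domains rich in splicing factors, and Neat1 is the RNA scaffold around which paraspeckles form. Meg3, Rian and Mirg are expressed from the maternal chromosome of the Dlk1-Dio3 imprinted domain, and their introns and exons hold microRNAs and snoRNAs. Miat, also called Gomafu or Rncr2 (retinal non-coding RNA 2), is a nuclear RNA of neurons that was named in the retina. Snhg11 is a neuronal host gene of small nucleolar RNAs.

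In mm10, which is the GRCm38 assembly, RefSeq places Malat1 on chromosome 19 from 5795690 to 5802672 and Neat1 on the same minus strand from 5824708 to 5845480, with a gap of 22036 bases. On the plus strand of chromosome 12 lie Meg3 (109540996 to 109571729), Rian (109603945 to 109661716) and Mirg (109734981 to 109749458), with gaps of 32216 and 73265 bases. Miat lies on chromosome 5 from 112213228 to 112228948, minus strand, and Snhg11 on chromosome 2 from 158375713 to 158386474, plus strand. Snhg11 is a long non-coding RNA in RefSeq, but a protein coding gene in GENCODE M21 and in the authors' deposited table.

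Some of these RNAs carry known sequence features, shown here from reference annotation as background. Counts per gene do not tell which form of an RNA was counted. The first is the stretch around the processed 3′ end of Malat1 (chr19:5795924-5796081, minus strand). It stops at base 6749 of the 6983 bases of the GENCODE M21 transcript. The capitals mark the 58 bases that RefSeq annotates as mascRNA, a transfer-RNA-like small RNA that is cut off, and the lower-case bases before them hold the U-rich and A-rich tracts that fold into a stabilising triple helix, so that the mature RNA ends in a genome-encoded A-rich tract.
Malat1 3′ end: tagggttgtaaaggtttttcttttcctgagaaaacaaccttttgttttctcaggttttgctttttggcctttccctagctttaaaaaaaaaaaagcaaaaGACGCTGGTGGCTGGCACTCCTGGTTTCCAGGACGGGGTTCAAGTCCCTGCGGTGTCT

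The second is a stretch of Miat (chr5:112216762-112216881, minus strand, GENCODE M21 transcript). It was picked because no other stretch of 120 bases in the longest transcript held more copies of ACTAAC. The repeats of Miat are known to bind the splicing factor SF1, but binding to this stretch was not tested. The capitals mark the 4 copies of ACTAAC in this stretch of 120 bases.
Miat repeat: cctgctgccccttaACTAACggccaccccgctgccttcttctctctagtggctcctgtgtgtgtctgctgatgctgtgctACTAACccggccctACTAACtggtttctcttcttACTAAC
In the longest transcript of each gene, read on the transcribed strand, ACTAAC occurred 11 times in Miat (9163 bases), 4 times in Neat1 (20771 bases), once in each of Meg3, Snhg11 and Mirg, and in neither Malat1 nor Rian. Of 139 long non-coding genes with a longest transcript of at least 5000 bases, 57.6% held ACTAAC, and 3, Miat included, held it as often as Miat. The longer form TACTAAC, which contains ACTAAC, occurred 6 times in Miat and once in Neat1.

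The third set shows the small RNAs that the chromosome 12 members host, with the seed (bases 2 to 8) in capitals, from RefSeq (GRCm38.p6).
mmu-miR-770-5p, within Meg3: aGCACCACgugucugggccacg
mmu-miR-370-3p, within Rian: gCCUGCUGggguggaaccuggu
mmu-miR-410-3p, within Mirg: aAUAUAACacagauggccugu
The seeds of these 3 microRNAs differ from one another. The levels read here are those of the host RNAs, and the small RNAs inside them were little counted. How reads shared by a host and a small RNA were assigned is not stated, so low counts do not show absence. The mascRNA and the snoRNAs of Snhg11 had no row. The count table held 21 rows of microRNAs or snoRNAs that lie inside the members, and 17 of them had 0 counts in every library. The 1 row with more than 2 counts in all was the snoRNA AF357359 inside Rian, with 10, 30 and 18 counts in WT-1, WT-4 and WT-23 and 29, 17 and 26 in Rd10-3, Rd10-4 and Rd10-5.

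Libraries are named as in the count table and held 13573035 to 15818918 counts in WT and 10923556 to 12171088 in rd10. Levels are CPM, the field's usual depth-scaled counts, with library sizes scaled by TMM (trimmed mean of M values) factors. Rod genes were strongly expressed in both groups: the 20 listed summed to 120000 to 139000 CPM in WT and 24800 to 36200 CPM in rd10. All 20 fell in rd10. All 20 microglial genes and 14 of 19 Müller cell genes rose. The ribosomal RNA precursor Rn45s took 0.666% to 0.689% of the counts in WT and 1.04% to 1.08% in rd10. In whole retina, fewer cells of a type and less RNA per cell cannot be told apart.

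The name under which these RNAs were grouped calls them abundant, which the counts bore out only in part. Malat1 was the most abundant, with 11.4% of the 13905 tested genes above it in mean CPM. For Rian the share above it was 31.3%, and for Meg3 40.8%. Snhg11 (64.5%), Miat (85.0%) and Neat1 (90.2%) lay in the lower part of the tested genes. Mirg did not pass the filter on low counts and was not tested.

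**Figure D1:**
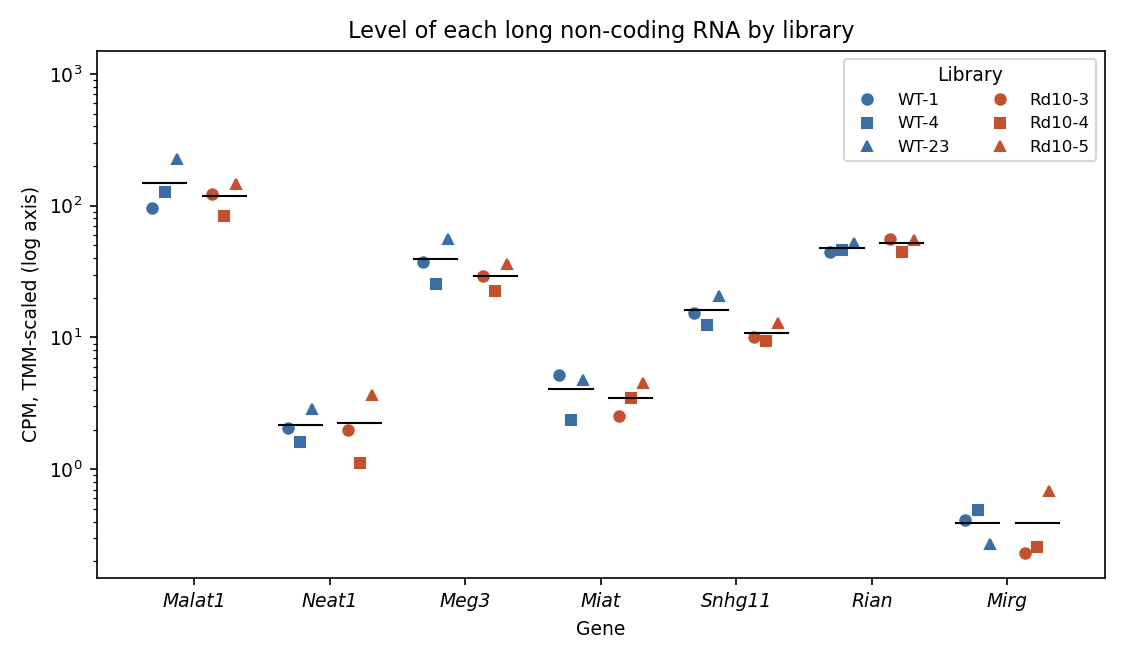
TMM-scaled CPM (log axis) of each RNA in the 3 WT libraries (blue) and 3 rd10 libraries (orange); marker shapes separate the libraries and black bars are group means. WT and rd10 points overlap for each of the 7 RNAs, and Malat1 lies highest in every library.

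Counts per kilobase of exon (union of all GENCODE M21 exons of a gene) allow only a rough comparison between genes. The annotation used for counting is not named, and the order can change with the length taken. The union has 18234 bases for Rian and 8521 for Snhg11, but their longest transcripts have 8089 and 5864. For Neat1 the union has 20771 bases, the length of its longest transcript, but its shortest has 711. For Snhg11 the authors' deposited table gives 33.8 FPKM in WT, far from the 1.89 CPM per kb found here. On the union scale Malat1 was at 21.5 ± 9.7 CPM per kb in WT (SD, n = 3) and 16.8 ± 4.5 in rd10, far above the others. Rian (2.62 ± 0.21 in WT), Meg3 (2.19 ± 0.86) and Snhg11 (1.89 ± 0.48) came next. Every WT library of Rian lay above every one of Snhg11, and the WT range of Meg3 overlapped both, so the place of Meg3 is not resolved. Miat (0.440 ± 0.162), Neat1 (0.104 ± 0.030) and Mirg (0.0534 ± 0.0150 CPM per kb) followed. On this scale the WT ranges of Snhg11, Miat, Neat1 and Mirg did not overlap. The counts do not tell which Neat1 transcripts were present, so its place below Miat holds for the union length only. In rd10 the ranges of Rian (2.45 to 3.09 CPM per kb) and Meg3 (1.25 to 1.99) did not overlap, while those of Meg3 and Snhg11 did, and those of Neat1 and Mirg did as well.

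Across all genes, 14.4% were called (edgeR quasi-likelihood test, adjusted p under 0.05 over 13905 genes), 7.12% higher and 7.32% lower in rd10. None of the 6 tested members was called in either direction, and 1 of 6, Snhg11, had an unadjusted p under 0.05, as did 30.1% of all genes. DESeq2 and limma voom also called none of the 6. The libraries of the groups did not overlap for 35.7% of all genes and for 0 of the 7 members. The median log2 fold change of the 6 tested members was -0.29, beside -0.037 for all genes. With 3 libraries a group, a p that misses the threshold does not show that levels were equal, so the interval of each change is given with it.

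Malat1 had 1175, 1840 and 3338 counts in WT-1, WT-4 and WT-23 and 1603, 982 and 1919 in Rd10-3, Rd10-4 and Rd10-5. In CPM these were 96.1, 128 and 226 in WT and 123, 83.7 and 146 in rd10. WT-23 stood highest and Rd10-4 lowest, and both other WT libraries lay within the rd10 range. The log2 fold change of rd10 over WT was -0.35 ± 0.32 (SE; edgeR adjusted p = 0.502), with a 95% interval from -1.09 to 0.39, or 0.469 to 1.31 of the WT level. Without WT-23 the log2 fold change was 0.09, so 1 library set its direction. The highest WT library was at 2.36 times the lowest, a wider WT range than that of most genes: the median over all tested genes was 1.38, and 7.68% of them had a wider one.

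Neat1, its neighbour, was scarce: the WT libraries gave 25, 23 and 42 counts and the rd10 libraries 26, 13 and 48. The rd10 libraries Rd10-4 and Rd10-5, at 1.11 and 3.65 CPM, enclosed the whole WT range of 1.60 to 2.85 CPM. The log2 fold change was 0.06 ± 0.43 (edgeR adjusted p = 0.937), with an interval from -0.93 to 1.05. A change of up to about the size of a doubling in either direction therefore lies within the error, and without Rd10-5 the value was -0.47 (adjusted p = 0.509).

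The log2 ratio of Neat1 to Malat1 within a library does not depend on the scaling between libraries. It was -5.44, -6.18 and -6.23 in WT and -5.85, -6.07 and -5.27 in rd10. The groups overlapped and differed by 0.22 ± 0.35 (SE, n = 3 and 3; p = 0.5 in a two-sided exact permutation test, 0.7 when adjusted over 4 ratios). With 3 against 3 the smallest p this test can give is 0.1.

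Paraspeckles also need their proteins. Of 25 listed paraspeckle protein genes, 2 fell, none rose and 23 were not called, with a median log2 fold change of -0.28, beside -0.037 for all genes. Across all genes 7.32% were called lower, so 2 of 25 was about that background. Hnrnph3, an RNA-binding protein gene, fell by 0.96 ± 0.20 on the log2 scale (edgeR adjusted p = 0.0147), from 107 ± 25 to 54.8 ± 9.6 CPM. Ewsr1, another RNA-binding protein gene, fell by 0.38 ± 0.11 (edgeR adjusted p = 0.0492). The call of Hnrnph3 was lost in 3 of 16 alternatives, each of which left out 1 library (WT-4, Rd10-3 or Rd10-4), and that of Ewsr1 in 11 of 16. Of 24 listed genes of nuclear speckle proteins, where Malat1 resides, Srrm1, a splicing coactivator gene, fell by 0.37 ± 0.10 (adjusted p = 0.0478, lost in 10 of 16 alternatives) and the other 23 were not called, with a median of -0.31. That 1 of 24 was less than the 7.32% of all genes called lower.

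For Meg3 the WT libraries gave 459, 364 and 828 counts and the rd10 libraries 379, 265 and 474, or 37.5, 25.4 and 56.1 CPM against 29.1, 22.6 and 36.1. WT-23 was again the highest library and Rd10-4 the lowest, and the groups overlapped. Its log2 fold change was -0.44 ± 0.29 (SE; edgeR adjusted p = 0.351), with an interval from -1.11 to 0.23. It fell short of the threshold in each of the 16 alternatives, between -0.71 and -0.08, the latter without WT-23.

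Rian, the next RNA of the domain, varied least among the members. Its counts were 546, 667 and 766 across the WT libraries and 734, 524 and 719 across those of rd10, or 44.6, 46.5 and 51.9 CPM against 56.3, 44.6 and 54.7. The lowest rd10 library matched the lowest WT library. The log2 fold change was 0.12 ± 0.13 (edgeR adjusted p = 0.588) with the narrowest interval of the 6, from -0.19 to 0.43. In this fit its upper end was 1.35 times the WT level. Its highest WT library was at 1.16 times its lowest, and 82.5% of all tested genes had a wider WT range.

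Mirg was near the limit of detection, and the WT libraries gave 5, 7 and 4 counts and the rd10 libraries 3, 3 and 9. Summed over libraries these were 16 and 15 counts, a ratio of rd10 to WT of 1.02 with a 95% exact binomial interval from 0.471 to 2.21 that covers counting error only. No difference between the groups was detectable at this depth.

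Meg3, Rian and Mirg lie in a row on 1 strand, and their levels were also read as ratios within a library. The log2 ratio of Rian to Meg3 was 0.25, 0.87 and -0.11 in WT and 0.95, 0.98 and 0.60 in rd10. All rd10 libraries but Rd10-5 lay above every WT library, and WT-4 lay within the rd10 range. The difference of 0.51 ± 0.31 (SE, n = 3 per group) had an exact permutation p = 0.2, or 0.7 adjusted over the 4 ratios, and was 0.28 without WT-23 and 0.77 without WT-4. The ratios of Mirg to Meg3 (0.24 ± 0.56) and of Mirg to Rian (-0.26 ± 0.42) had an exact permutation p = 0.7 each.

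The other genes of the Dlk1-Dio3 domain and its flank were not called either. Dlk1, a Notch-related ligand gene of the paternal chromosome, was counted 64, 68 and 56 times across WT and 89, 86 and 66 times across rd10 (0.48 ± 0.22 on the log2 scale, edgeR adjusted p = 0.195). Dio3, the deiodinase gene that inactivates thyroid hormone, had -0.51 ± 0.64 (adjusted p = 0.643) and its antisense partner Dio3os 0.87 ± 0.35 (adjusted p = 0.137). Begain, a synaptic protein gene, had 0.40 ± 0.28, and the flanking genes Wdr25 and Wars had 0.07 ± 0.23 and 0.03 ± 0.14. Rtl1, a retrotransposon-derived gene on the strand opposite to Meg3 and Rian, had 5 counts in Rd10-5 and 0 in the other libraries. The sources used here do not say whether counting was strand-specific, so reads of overlapping opposite genes cannot be told apart.

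Miat gave 63, 34 and 70 counts across the WT libraries and 33, 41 and 59 across those of rd10, or 5.15, 2.37 and 4.75 CPM against 2.53, 3.49 and 4.49. Each rd10 value lay between the lowest and highest WT values. The log2 fold change was -0.22 ± 0.34 (edgeR adjusted p = 0.715), with an interval from -1 to 0.57. Of the genes of 4 proteins that bind Miat, none was called. Sf1, the splicing factor gene whose product is known to bind the repeats of Miat, had 204 ± 12 CPM in WT and 191 ± 10 in rd10. For Srsf1, a serine- and arginine-rich splicing factor gene, the values were 174 ± 72 and 136 ± 16 CPM.

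Snhg11 came nearest to a difference between the groups. Its counts were 187, 179 and 303 across the WT libraries and 132, 111 and 169 across those of rd10, or 15.3, 12.5 and 20.5 CPM against 10.1, 9.46 and 12.9. All rd10 libraries but Rd10-5 lay below every WT library, and Rd10-5 lay just above WT-4. The log2 fold change was -0.57 ± 0.22 (SE; unadjusted p = 0.0313, edgeR adjusted p = 0.124), with an interval from -1.08 to -0.07. The authors' deposited table is a filtered list of 3427 genes (14.2% of the number in the count table), all with a p of 0.0499 or less, a fold of at least 1.2 and at least 2 FPKM in the higher group, so a gene's absence from it cannot be read. In the authors' deposited table Snhg11 was the 1 member listed, with 33.8 FPKM in WT and 22.7 in rd10, a log2 fold change of -0.57 and a p of 0.0233, for which no adjustment is stated. Leaving out each library in turn gave log2 fold changes from -0.72 to -0.34, the smallest without WT-23, and adjusted p-values of 0.0878 or more.

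Snhg11 passed the threshold in 2 of 16 alternatives. With a trend of transcript GC content removed from each library it had -0.50 ± 0.17 (edgeR adjusted p = 0.048), in a fit that called 16.1% of all genes lower. With library factors taken from genes of bipolar, amacrine and ganglion cells (inner neuron scaling) it had -0.84 (adjusted p = 0.049), in a fit that called 16.4% of all genes lower and shifted the all-gene median by -0.258.

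**Figure D2:**
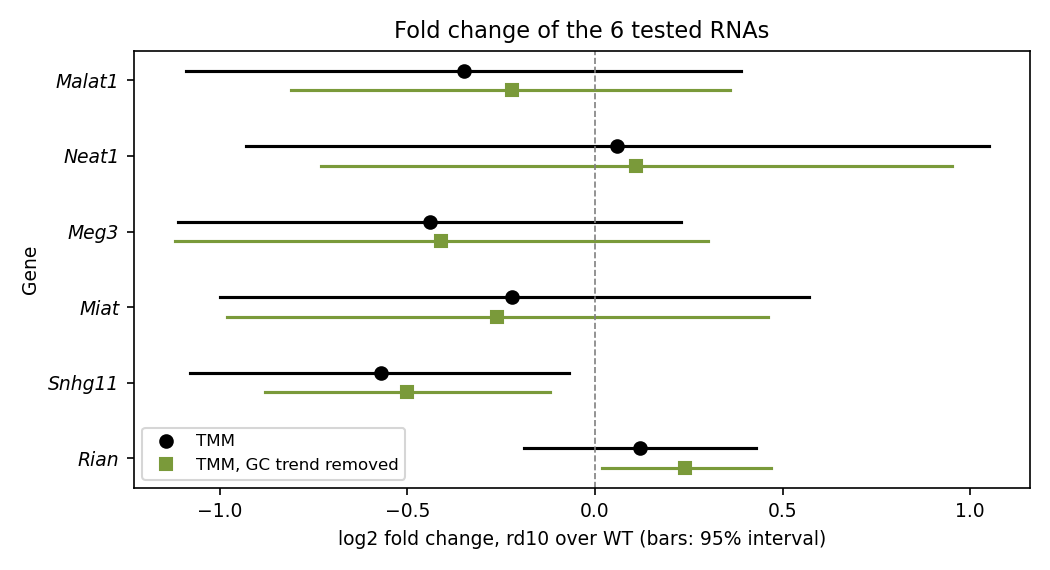
Log2 fold changes of rd10 over WT with 95% intervals from edgeR, with TMM factors (black circles) and with each library's GC trend removed as well (green squares). With TMM the interval of Snhg11 (-1.08 to -0.07) does not reach 0, those of the other 5 RNAs do, and Rian has the narrowest. With the GC trend removed, the intervals of Snhg11 (-0.88 to -0.12) and Rian (0.02 to 0.47) do not reach 0.

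Other snoRNA host genes were read beside Snhg11. Of 20 listed, 13 had a row in the count table and 11 were tested, of which 3 fell and none rose. Across all genes 7.32% were called lower. The list was chosen with earlier results of these data known, so the count does not show a change of the family. The median change of the 11 was -0.31 on the log2 scale, beside -0.037 for all genes. Snhg12 went from 17.3 ± 0.9 to 11.2 ± 1.9 CPM (-0.63 ± 0.16, edgeR adjusted p = 0.0381), Snhg6 from 7.26 ± 1.48 to 3.54 ± 1.10 CPM (-1.03 ± 0.28, adjusted p = 0.0437) and Snhg5 from 7.63 ± 1.92 to 4.13 ± 0.71 CPM (-0.89 ± 0.24, adjusted p = 0.0465). These calls were lost in 8, 7 and 9 of 16 alternatives.

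Because the rods' share of the RNA shrank, the members were also read against inner neurons within each library. The reference was the mean log2 CPM of 44 genes of bipolar, amacrine and ganglion cells, whose median log2 fold change was 0.25. Snhg11 lay -2.54, -2.62 and -1.82 from that mean in WT and -3.21, -3.38 and -2.80 in rd10, on the log2 scale. It was the 1 member whose groups did not overlap on this measure, with a difference of -0.81 ± 0.31 (SE, n = 3 and 3; p = 0.1 in the exact permutation test, which can go no lower, and 0.6 when adjusted over 6 members). On the same measure the groups did not overlap for 39.4% of all tested genes, so 1 of 6 members is no more than that background. Meg3 differed by -0.65 ± 0.44 (exact p = 0.2), Malat1 by -0.55 ± 0.53 (exact p = 0.4) and Miat by -0.43 ± 0.41 (exact p = 0.3). For Neat1 and Rian the differences of -0.31 ± 0.57 and -0.14 ± 0.21 both had an exact p = 0.6. Without WT-23 the differences were -0.29 for Meg3, -0.14 for Malat1 and -0.23 for Miat, and without WT-1 that of Malat1 was -0.91. The part that rod loss, glial change or ribosomal RNA has in these values was not tested. The summed CPM of the 14 amacrine genes was 2220 to 2660 in WT and 2710 to 3090 in rd10, and that of the 14 ganglion cell genes 1790 to 2070 and 2190 to 2300, with no gene of either list at 0 throughout.

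**Figure D3:**
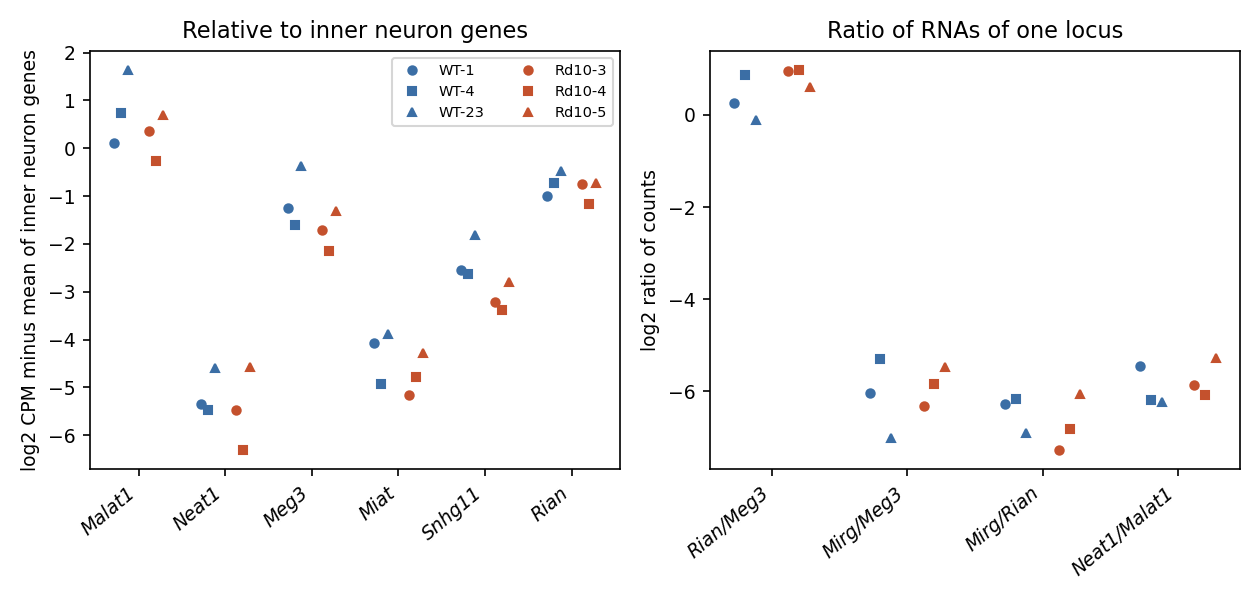
Left, log2 CPM of each tested RNA minus the mean of 44 inner neuron genes of the same library; right, log2 ratios of counts between RNAs of one locus; blue points are WT and orange points rd10 libraries. Snhg11 is the 1 RNA of 6 on the left whose groups do not overlap, as for 39.4% of all tested genes, and all 4 ratios on the right overlap.

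The same libraries tended to be high or low for several members. WT-23 was the highest WT library for 5 of the 7, Rd10-5 the highest rd10 library for 6 and Rd10-4 the lowest for 5. Libraries also differed in how much they held of genes poor in GC. The fitted trend, the level at 41.4% GC minus that at 57.9%, was -0.56, 0.18 and 0.67 on the log2 scale in WT-1, WT-4 and WT-23, and 0.06, -0.53 and 0.18 in Rd10-3, Rd10-4 and Rd10-5. Malat1 (42.5% GC) followed this order in WT, and its lowest rd10 library was the one with the lowest trend. Rian, with 35.8% GC the poorest of the 6, followed the same order in WT over a narrow range (44.6, 46.5 and 51.9 CPM). Among the rd10 libraries it was also lowest in Rd10-4. Miat, with 55.1%, was highest in WT-1. Snhg11 (44.8% GC), Neat1 (47.3%), Meg3 (49.2%) and Miat did not follow the order of the trend in WT, and each was lowest in WT-4.

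With the trend removed, the range of Malat1 within WT narrowed from 2.36-fold to 1.79-fold, and its values were 107, 122 and 191 CPM in WT and 123, 96.0 and 141 in rd10. Its log2 fold change was then -0.22 ± 0.24 (edgeR adjusted p = 0.536). For Meg3 the WT range hardly moved, at 2.18-fold after 2.21-fold, and for Miat and Rian it widened, from 2.18-fold to 2.31-fold and from 1.16-fold to 1.27-fold. Rian had 52.0, 43.7 and 40.9 CPM in WT and 56.1, 53.4 and 51.9 in rd10 with the trend removed, and a log2 fold change of 0.24 ± 0.10 (edgeR adjusted p = 0.0956). Its rd10 libraries then lay above WT-4 and WT-23, and WT-1 lay within the rd10 range.

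**Figure D4:**
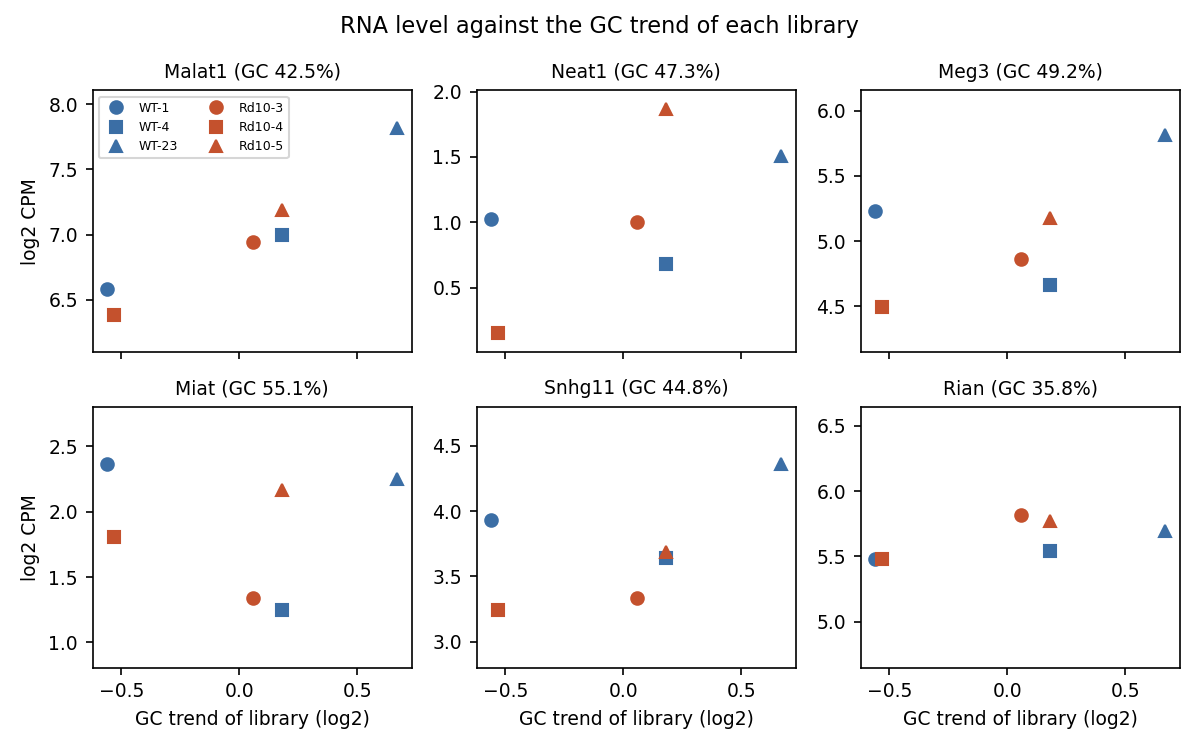
Log2 CPM of each tested RNA (each panel spans the same 2 log2 units) against the GC trend of its library, in log2 units; a library further right held more of genes poor in GC. Malat1 is lowest in Rd10-4 and WT-1 and highest in WT-23, while Rian stays nearly level.

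For each tested member, the genes whose log2 CPM ran most alike over the 6 libraries were named by Pearson's r, as a description. For Malat1 these were Dnajc3 and Rfx7 (r = 0.999 and 0.995), for Neat1 Rbm28 and Cerkl (0.988 and 0.967) and for Meg3 Fam196b and Katnal1 (0.980 and 0.974). For Miat they were Sec22c and Pde10a (0.974 and 0.963), for Snhg11 Rpe and Kansl1 (0.995 and 0.990) and for Rian Htr1d and Phf10 (0.986 and 0.984). They are the highest of about 10990 values each over only 6 libraries that share depth and GC trends, and no gene of these 12 was called.

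Some other long non-coding RNAs were called in these retinas. Of 40 listed, 29 had a row in the count table and 22 were tested. Of these, 2 rose, 3 fell and 17 were not called, with a median log2 fold change of -0.13. Across all genes 7.12% were called higher and 7.32% lower. The list was chosen with earlier results of these data known, so its count does not measure how often such RNAs change. Vax2os, an antisense RNA known in photoreceptors, gave 708, 634 and 678 counts across the WT libraries and 188, 211 and 267 across those of rd10. Its groups did not overlap and it fell by 1.49 ± 0.18 on the log2 scale (edgeR adjusted p = 0.00149), a call kept in all 16 alternatives. Sox2ot, which overlaps the progenitor and glial factor gene Sox2, rose from 7.59 ± 1.34 to 14.3 ± 2.0 CPM (adjusted p = 0.0168, lost in 4 of 16 alternatives). The other calls were 1700020I14Rik and Firre, which fell, and H19, which rose from 14, 1 and 13 counts to 35, 47 and 36, and these were lost in 7, 6 and 4 of 16.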

How the data were processed

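Libraries were directional (uracil-marked second strand) from 1 µg of total RNA, per the labels' protocols. TopHat2 2.1.0, HTSeq, edgeR and mm10 are named in the submitters' processing notes, with no role or order. No source used here names the gene annotation. Counts are whole numbers of reads per gene, as deposited. Per the file headers, the authors also gave for 3427 genes the FPKM of each genotype, the log2 change between them and its p-value. Column numbers match no replicate number of the titles, so columns were assigned to groups by name.

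Counts were filtered with filterByExpr (13905 of 24062 genes left). The main test was that of edgeR 4.0.16 under R 4.3.3 (TMM factors, robust quasi-likelihood, genotype only, Benjamini-Hochberg over all genes); intervals are fold change ± t × SE. Within-library values used a prior count of 2. Replicates differed beyond sampling noise (chi-square per degree of freedom from 7.36 to 57.8). Alternatives were other scalings and filters, DESeq2 1.42.0, limma 3.58.1 voom, a fold of 1.2, a GC trend (loess, GENCODE M21, 95.7% of tested genes) and each library left out. Members and lists were chosen with earlier results of these data known. Named were the members, up to 4 called genes per list or the 2 most abundant, all domain genes, and the 2 genes most like each member (mean of at least 5 CPM, predicted genes left out); H19 was added after its values were seen, to complete a count of 5.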

Additional observations from a re-analysis of the deposited data

How the results depend on the processing

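No paired analysis was possible because the columns of the count table carry numbers that do not match the replicate numbers of the samples. Of 96 log2 fold changes of members refitted across all genes, 87 kept their direction and side of the threshold. The number of all genes called, 2008, was 3043 with library size alone (81.2% of calls higher, against 49.3% with TMM), 1285 against a fold of 1.2, 4549 with the GC trend removed, and 885 to 3214 with 1 library left out (885 without Rd10-3, 952 without WT-4, 1227 without Rd10-4, 1317 without Rd10-5, 3214 without WT-1). With upper quartile factors 63.3% and with inner neuron scaling 20.6% of calls were higher. No member was called higher in any alternative, and the number called lower was 1 (Snhg11) with inner neuron scaling and 1 with the GC trend removed. The all-gene median shifted by 0.24 on the log2 scale with library size alone and by -0.258 with inner neuron scaling.

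Some log2 fold changes, none of them called, changed sign. Neat1 was at -0.19 with inner neuron scaling, -0.05 by limma voom and -0.47 to 0.38 with 1 library left out, Miat at 0.02 with library size alone, Rian at -0.14 with inner neuron scaling and Malat1 at -0.60 to 0.09 with 1 library left out. Within libraries and with 1 library left out, the difference between groups ranged from -0.75 to 0.12 for Neat1 and from -0.27 to 0.0021 for Rian, each minus the inner neuron mean, and on that measure was -0.91 to -0.14 for Malat1, -0.91 to -0.29 for Meg3 and -0.75 to -0.23 for Miat. It ranged from -0.21 to 0.65 for the ratio of Mirg to Meg3, 0.28 to 0.77 for Rian to Meg3, -0.59 to 0.01 for Mirg to Rian and -0.01 to 0.48 for Neat1 to Malat1. The cause was not tested. Mirg and Neat1 had the lowest counts of the members and Mirg could not be tested after the filter.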
